A study of Neurospora crassa with 6 samples.

Results

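The change in transcript level between the vegetative and the protoperithecial stage was examined within one strain of *Neurospora crassa*, the Δ*mak-2* mutant. The members were all entries of the deposited table with more than 10 RPKM (reads scaled to gene length in kilobases and to sequencing depth) in at least 1 of the 2 Δ*mak-2* libraries. They numbered 6103 of 9872 entries, and 16 of them carried no NCU locus number. The rule used only the level, not the direction or size of a change. At its edge, NCU01557 entered with 3.41 RPKM at the protoperithecial and 10.03 RPKM at the vegetative stage, while NCU00199 stayed out with 9.997 and 4.50 RPKM.

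The study asked how 2 mitogen-activated protein (MAP) kinases, MAK-1 and MAK-2, take part in the formation of protoperithecia, and sequenced 3 strains at 2 stages. The Δ*mak-2* strain is a stock-centre deletion of *mak-2* with mating type a, and the Δ*mak-1* strain is the matching deletion of *mak-1*. The wild-type strain carries neither deletion, and which mating type was sequenced is not stated. For the protoperithecial stage, each strain grew for 3.5 days in constant darkness at 25°C, on cellophane over crossing medium (SC) that held 0.1% sucrose. For the vegetative stage it was shaken for 22 h at 28°C in liquid Vogel's medium, for which no light condition is stated. Each of the 6 conditions is 1 library, made from the pooled RNA of 3 repeats. Medium, carbon supply, surface, temperature, age and light all change together between the stages and cannot be told apart. A p-value cannot be given with 1 library a side, and the difference between strains in a stage ratio could not be tested.

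Protoperithecia are the female structures that *N. crassa* forms when nitrogen is scarce, by coiling and wrapping of hyphae, and that develop into perithecia after fertilization. MAK-2 is the terminal kinase of the pheromone response (PR) pathway, a relative of yeast Fus3. It phosphorylates the transcription factor PP-1 and is needed for hyphal fusion, for normal aerial growth and for female fertility. MAK-1 is the terminal kinase of the cell wall integrity (CWI) pathway. In *N. crassa* sugar shortage also relieves carbon catabolite repression, and light and air exposure drive carotenoid synthesis and conidiation.

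The deleted gene was read first. *mak-2* had 0 reads in both Δ*mak-2* libraries, against 586 RPKM at the protoperithecial and 68.2 RPKM at the vegetative stage in wild type. The RPKM values could be turned back into whole reads, and the 6 libraries held 2602076 to 3668046 mapped reads, with 3371962 in the protoperithecial and 2866325 in the vegetative library of the mutant. At 10 RPKM a transcript of the median length of 1365 bases had about 46.0 reads in the protoperithecial and 39.1 reads in the vegetative library of the mutant. The vegetative libraries were more uneven. The 10 most read genes took 8.99% of mapped reads in the protoperithecial and 22.4% in the vegetative Δ*mak-2* library, and 11.8% and 22.3% in those of wild type. All intervals given below are 95% exact binomial intervals of the ratio of the 2 read counts, and cover counting error only, not the spread between cultures.

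Between stages, 2524 of the 6103 members rose more than 2-fold in the Δ*mak-2* mutant (41.4%) and 574 fell to less than 0.5 of the vegetative level (9.41%). The other 3005 lay between, so 81.5% of the 3098 changed members rose. The same rule gave 2894 increases (46.5%) and 643 decreases (10.3%) among 6225 wild-type genes, and 2073 increases (32.6%) and 603 decreases (9.48%) among 6359 genes of the Δ*mak-1* mutant. The median stage ratio over members was 1.68 in the Δ*mak-2* mutant, with quartiles of 1.02 and 3.02, and 1.86 in wild type. A ratio of 1.68 is therefore the level of the median gene. Calls and fold changes below are RPKM ratios that are not corrected for it. Scaling to the median of ratios over genes moved the median log2 ratio by 0.75 and gave 1229 increases and 1251 decreases, and under the 3 scalings tried 47.2% to 54.3% of changed members rose, so the excess of increases held per mapped read but not under these scalings. Of the members, 1531 were above 10 RPKM at the protoperithecial stage only and 236 at the vegetative stage only. The whole counting interval lay above 2 for 1683 members and below 0.5 for 424. Around the threshold itself, 2.0008 was the smallest ratio called an increase and 1.9996 the largest not called.

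Part of the wild-type response was seen in the mutant. Of the 2894 genes that rose in wild type, 1892 also rose in the Δ*mak-2* mutant, 684 lay between 0.5 and 2, 17 fell, and 301 were at or below 10 RPKM in both mutant libraries. The 1892 genes are 65.4% of the wild-type increases and 73.0% of those that are members, beside 41.4% for all members and 18.0% for the 3510 members that did not rise in wild type. The 3 other scalings (median of ratios, upper quartile, *tub-2*) also changed the wild-type sets, to 1436, 1427 and 1813 increases and 1356, 1357 and 1045 decreases. Of these increases the mutant kept 53.8%, 57.6% and 47.4%, beside 20.5%, 22.5% and 19.6% of all members that rose. Of these decreases it kept 63.3%, 59.8% and 73.6%, beside 20.8%, 19.0% and 21.9% of all members that fell. Of the 643 genes that fell in wild type, 381 fell in the mutant (59.3%, or 63.7% of those that are members), 178 lay between, 39 rose and 45 were low, beside 9.41% for all members. Genes that rose in both strains had about the same levels in both, with a median of 0.948 for the ratio of the mutant to the wild-type level at the protoperithecial stage and 1.003 at the vegetative stage. Their median stage ratio was 3.73 in the mutant and 4.28 in wild type, and in 1644 of the 1892 the mutant ratio was at least 0.5 of the wild-type ratio. The 301 genes that rose in wild type and were low in the mutant had a median of 5.71 RPKM at the protoperithecial stage in the mutant, against 16.6 RPKM in wild type, and the RPKM rule itself sets that order.

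**Figure D1:**
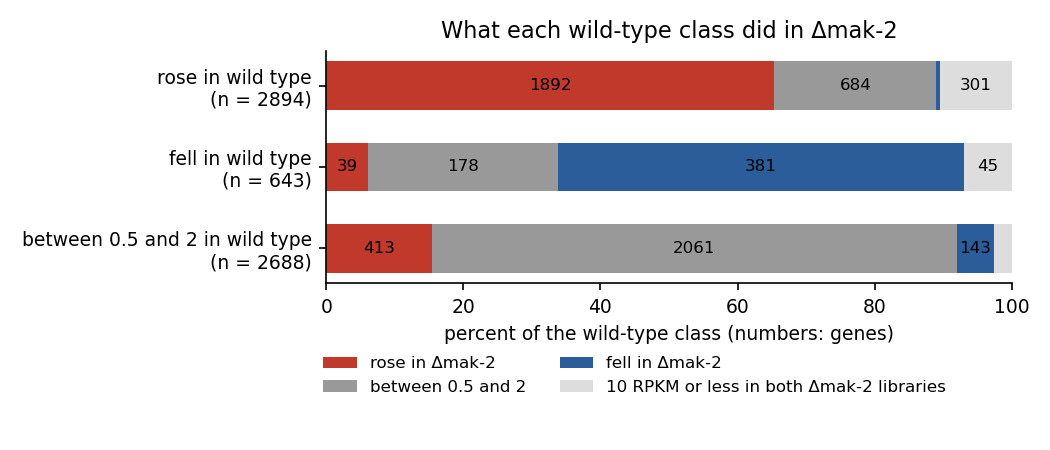
Stacked bars give, for genes that rose, fell or lay between 0.5 and 2 in wild type, the percent that rose, lay between, fell or were at 10 RPKM or less in both libraries of the Δ*mak-2* mutant, with gene numbers in the bars. The longest segment of each bar is the same class in both strains, 1892 increases, 381 decreases and 2061 genes between.

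Of the 2894 wild-type increases, 2890 were grouped by size. Wild-type increases of 2- to 4-fold rose in the mutant in 56.4% of 1554 genes, those of 4- to 16-fold in 77.3% of 1007, those of 16- to 100-fold in 70.3% of 266 and those above 100-fold in 79.4% of 63. The median mutant ratio in these 4 bins was 2.19, 4.03, 12.5 and 111, beside 2.69, 6.22, 30.6 and 292 in wild type. The bins were cut on the wild-type ratio, and that choice favours a lower mutant median in each. Over the 5808 genes past the RPKM rule in both strains, the standard deviation of the log2 ratio was 1.81 in wild type and 1.76 in the mutant. None of the 63 largest lay between or fell: the remaining 13 were at or below 10 RPKM in both mutant libraries. Across the 5808 genes past the RPKM rule in both strains, the log2 stage ratios had a Pearson r of 0.82 and a Spearman rho of 0.77, as a description across genes, which are not independent replicates. The 2 strains share no library in these ratios.

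**Figure D2:**
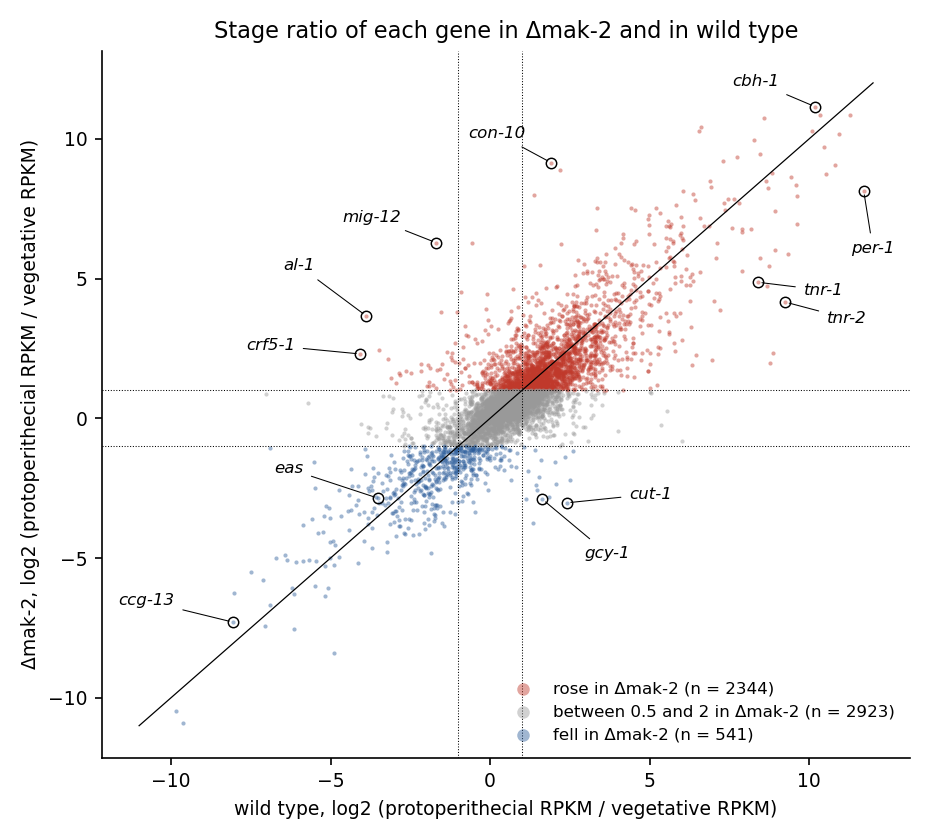
Each point is 1 of the 5808 genes past 10 RPKM in both strains, with the log2 stage ratio of wild type on the x axis and that of the Δ*mak-2* mutant on the y axis, a 0 set to 3 reads. Dotted lines mark 2-fold, the solid line equal ratios, and circles named genes. *cbh-1* and *ccg-13* lie near the line, *al-1*, *con-10*, *mig-12* and *crf5-1* far above it, and *tnr-1*, *tnr-2*, *cut-1* and *gcy-1* far below it.

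The largest increases of the mutant were genes for plant cell wall breakdown and sugar uptake. *N. crassa* secretes cellulases and xylanases when easily used sugar runs out, under the transcription factors CLR-1, CLR-2 and XLR-1. All 18 listed enzyme genes in the table were members and all 18 rose, in the mutant as in wild type. Their median ratio was 277 in the mutant and 219 in wild type, beside 1.68 over all members. Except for *gh6-2*, they passed 10 RPKM in the mutant only at the protoperithecial stage, so the RPKM rule itself favours a rise among them. Over all members 41.4% rose. All 18 enzyme genes stayed above 2 under every scaling tried. Ratios of this size could not do otherwise: the smallest was 5.81, and the scalings lowered the log2 ratio by at most 0.80. The major cellobiohydrolase gene *cbh-1* had 8597 RPKM at the protoperithecial stage and 3.79 RPKM at the vegetative stage in the mutant, a ratio of 2269.8 (interval 1418 to 3897). In wild type it had 6569 and 5.64 RPKM. With 45394 reads, 1.35% of the library, it was exceeded only by the elongation factor gene *tef-1* (52195 reads, named after its value was seen) at the protoperithecial stage of the mutant. The second cellobiohydrolase gene, *gh6-2*, had 4866 and 11.03 RPKM, against 6438 and 14.3 RPKM in wild type. The endoglucanase gene *gh5-1* rose 1855-fold on only 5 vegetative reads (interval 795 to 5714). These enzyme genes were close to silent in vegetative hyphae of both strains and abundant at the protoperithecial stage.

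The lytic polysaccharide monooxygenases of family GH61, which cut cellulose by oxidation, moved the same way. *gh61-4* had 2918 reads at the protoperithecial stage and 0 at the vegetative stage in the mutant, and was at least 827-fold higher when the 0 is set to 3 reads in that library (the exact interval starts at 672). *gh61-1* rose 699.8-fold and *gh61-5* 231-fold. Of the xylanase genes, *gh11-2* was at least 532-fold higher and *gh10-1* at least 77.6-fold higher, each against 0 vegetative reads set to 3, with exact intervals that start at 432 and 62.7. *gh10-2* had 379.8 RPKM and 0.302 RPKM, the vegetative value being 1 read (ratio 1257, interval 225 to 49691). The smallest change of the list was in *gh11-1*, at 13.9 and 2.39 RPKM (5.81-fold), against 38.4 and 1.75 RPKM in wild type. Levels differed between strains for single genes: the β-glucosidase gene *gh3-4* reached 59.1 RPKM in the mutant and 285 RPKM in wild type, while *gh3-3* reached 579 and 184 RPKM.

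Most regulator and sugar transporter genes rose. Of 12 genes found, 10 were members and 7 rose (6 under the 3 other scalings), none fell, and the median ratio was 5.50, against 7 of 10 and 5.57 in wild type. Over all members 41.4% rose and 9.41% fell. The cellodextrin transporter gene *cdt-2* had 1232 RPKM at the protoperithecial and 0.663 RPKM at the vegetative stage, the second value resting on 3 reads (ratio 1857, interval 635 to 9009). The high-affinity glucose transporter gene *hgt-1* stood at 859.7 and 0.499 RPKM (ratio 1722, interval 589 to 8355), and *cdt-1* rose 225-fold. *clr-1* rose 8.78-fold and the glucose-responsive regulator gene *col-26* 7.204-fold, close to 7.06 and 6.75 in wild type. *clr-2* and *xlr-1* were below the RPKM rule, with 5.89 and 6.69 RPKM at the protoperithecial stage and 0.136 and 0 RPKM at the vegetative stage. The carbon catabolite repressor gene *cre-1* had 206 and 173 RPKM, a ratio of 1.19. The invertase gene *inv* rose 3.79-fold in the mutant and had a ratio of 0.963 in wild type.

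The remaining places among the 10 largest increases went to NCU09491, annotated as a feruloyl esterase (539 and 0.397 RPKM), NCU07894 (598 and 0.484), NCU07898 (549 and 0.481) and NCU02188 (239.6 and 0.239). Of these 4 vegetative values 3 are 1 read, and the interval of NCU09491 runs from 243 to 53652. All 10 genes of the top increases also rose in wild type and in the Δ*mak-1* mutant.

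Genes for the use of poor carbon and nitrogen sources rose in part, and in nitrate assimilation in a smaller share than over all members. Of 5 glyoxylate cycle and gluconeogenesis genes, 3 rose in the mutant (2 under the other scalings), beside 41.4% of all members. In wild type 5 of 5 rose, beside 46.5% of all its genes. The acetyl-CoA synthetase gene *acu-5* had 173 and 38.3 RPKM, a 4.51-fold increase. The malate synthase gene *acu-9* rose 2.76-fold and the fructose-bisphosphatase gene *fbp-1* 7.82-fold, the second on 5 vegetative reads. Isocitrate lyase (*acu-3*) and phosphoenolpyruvate carboxykinase (*acu-6*) had ratios of 1.48 and 1.60, against 2.58 and 6.52 in wild type. For *acu-6* the vegetative level was 32 RPKM in the mutant and 5.97 RPKM in wild type. In nitrate assimilation, 1 of 5 members rose (1 rose and 1 fell under the other scalings), beside 41.4% of all members. The gene that rose was the nitrate reductase gene *nit-3*, with 178 RPKM at the protoperithecial and 30.8 RPKM at the vegetative stage (5.79-fold, interval 5.08 to 6.62). The nitrite reductase gene *nit-6* stood at 343 and 545 RPKM and the nitrate transporter gene *nit-10* at 671 and 723 RPKM.

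Ribosome assembly genes mostly rose in both strains on the RPKM scale. Of 35 ribosome biogenesis members, 29 rose and 1 fell in the mutant, beside 41.4% and 9.41% of all members, with a median ratio of 3.37, and 28 of the 29 had risen in wild type, where 32 rose and the median was 4.21. Against the median gene fewer passed, 14 to 19 under the 3 other scalings. The largest was NCU02546, nucleolar GTP-binding protein 2, with 26.5 and 1.501 RPKM (17.6-fold, interval 8.75 to 41.5). The 1 gene that fell was NCU09004, translation initiation factor 6, with 189.7 and 479.7 RPKM. Of 53 spliceosome members, 25 rose and none fell (median 1.93), a share near the 41.4% of all members that rose, and 3 to 5 rose and 1 fell under the other scalings. The 85 ribosomal protein genes had a median ratio of 1.22, with 3 increases and no decrease, which lies above 1 on the RPKM scale and below the 1.68 of the median gene, and under the other scalings 1 rose and 6 to 11 fell. Proteasome genes kept a median of 1.61 with 3 of 31 rising (none under the other scalings), beside 41.4% of all members. In wild type the median was 2.05 and 18 of 31 rose, beside 46.5% of all its genes.

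Of 26 peroxisome members 14 rose and 2 fell, as many as in wild type, 11 rose in both strains, and 6 to 8 rose and 3 fell under the other scalings. Over all members 41.4% rose and 9.41% fell. The catalase genes split: *cat-3* had 1338 RPKM at the protoperithecial and 60.9 RPKM at the vegetative stage in the mutant (21.99-fold), against 331 and 355 RPKM in wild type, while *cat-1* fell, with 176 and 698 RPKM (ratio 0.253). In starch and sucrose metabolism 4 of 11 members rose and 1 fell (2 to 4 fell under the other scalings). The trehalase gene *tre-1* rose 32.02-fold and the α-glucosidase gene *gh31-3* 18.7-fold, much as in wild type (36.9- and 15.2-fold). *gh13-5*, of an amylase family, had 11.02 and 19.1 RPKM in the mutant, against 103 and 12.3 RPKM in wild type.

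Among the decreases of the mutant were transcripts that dominate vegetative hyphae. Of the 10 most read genes of the vegetative library 9 fell, beside 9.41% of all members, and a choice by vegetative level favours decreases. *ccg-13*, a clock-controlled gene, had 179 RPKM at the protoperithecial and 28138 RPKM at the vegetative stage (ratio 0.00637, interval 0.00583 to 0.00694), against 117 and 31172 RPKM in wild type. *ccg-14*, which encodes a small secreted protein, had 295 and 22585 RPKM, against 129 and 33222 RPKM in wild type. NCU07232 stood at 9.76 and 13858 RPKM and NCU00878 at 28.5 and 9568 RPKM. All 4 were among the most abundant vegetative transcripts and fell in wild type too.

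Further abundant vegetative transcripts, of which *adh-1* and *nmt-1* were chosen after their values were seen, also fell. The pyruvate decarboxylase gene *cfp* had 174 and 6849 RPKM in the mutant (ratio 0.0254) and a ratio of 0.028 in wild type. The alcohol dehydrogenase gene *adh-1* had 2487 and 8830.1 RPKM, and *ccg-7*, glyceraldehyde-3-phosphate dehydrogenase, 1801 and 8071 RPKM. The thiamine synthesis gene *nmt-1* was the most read vegetative gene, at 22383 RPKM, and had 2663 RPKM at the protoperithecial stage. In the sterol list 4 of 11 members fell and 2 rose (5 to 6 fell under the other scalings), beside 9.41% and 41.4% of all members. The same 4 fell in wild type. NCU06402 had 284 and 2339 RPKM, a ratio of 0.122.

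The list of the 10 largest decreases also held NCU11295 (1 read at the protoperithecial and 1614 at the vegetative stage, ratio 0.000527, interval 1.33e-05 to 0.00294), NCU05084, NCU06137, NCU09775, NCU04276 and NCU06940, with ratios of 0.00541, 0.00582, 0.00965, 0.0122 and 0.0129. All 10 also fell in wild type and in the Δ*mak-1* mutant. Some were not among the abundant transcripts: NCU11295, NCU05084 and NCU06137 had 541, 123 and 41.9 RPKM at the vegetative stage of the Δ*mak-2* mutant.

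**Figure D3:**
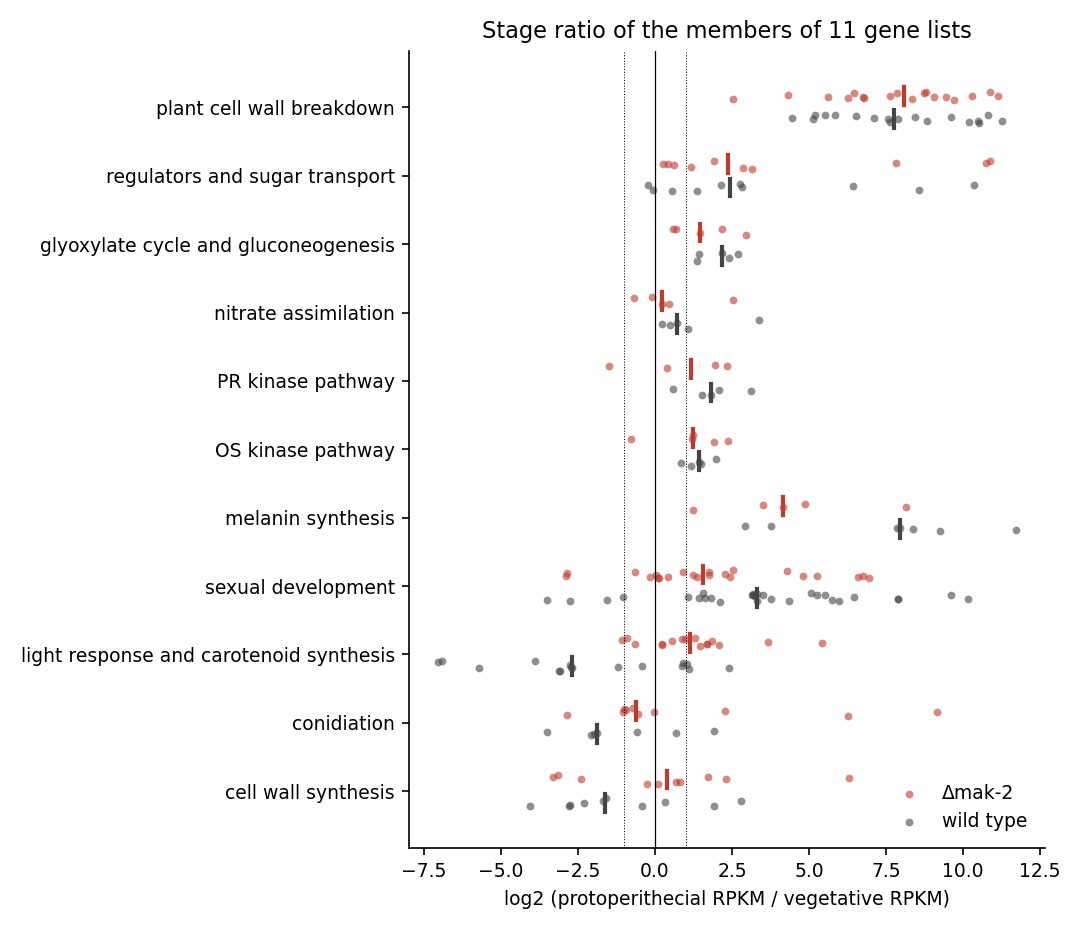
Points are the members of 11 gene lists past 10 RPKM, with the log2 stage ratio (protoperithecial over vegetative) on the x axis and a 0 set to 3 reads, in the Δ*mak-2* mutant (red, upper row) and wild type (grey, lower row), and short bars are medians. Plant cell wall breakdown sits far to the right in both strains. Melanin synthesis has its median at 17.9-fold over 5 genes in the mutant and 246-fold over 7 genes in wild type. The light response and conidiation lists lie further right in the mutant.

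Light response and carotenoid genes fell in wild type and not in the mutant for most of the list. Of 16 members, 8 rose and 1 fell in the mutant (4 to 6 rose and 3 fell under the other scalings), near the 41.4% and 9.41% of all members, with a median ratio of 2.22, whereas 3 rose and 10 fell in wild type, beside 46.5% and 10.3% of all its genes, with a median of 0.153. In the Δ*mak-1* mutant 8 rose and none fell. Of the 10 that fell in wild type, 3 rose, 6 lay between and 1 fell in the mutant. The phytoene dehydrogenase gene *al-1* had 5878 RPKM at the protoperithecial and 465 RPKM at the vegetative stage in the mutant (12.6-fold, interval 12.1 to 13.2), against 71.3 and 1049.8 RPKM in wild type. *al-3*, geranylgeranyl pyrophosphate synthase, had 1808 and 41.8 RPKM in the mutant, a 43.2-fold increase, and 181 and 87.2 RPKM in wild type. The carotenoid oxygenase gene *cao-2* rose 4.19-fold and the photolyase gene *phr* 2.74-fold, and both fell in wild type. *al-3* rose in both strains, while *al-1*, *cao-2* and *phr* went opposite ways.

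Other genes of the list that fell in wild type lay between 0.5 and 2 in the mutant. The blue-light receptor gene *vvd* had 2008 and 1718 RPKM in the mutant and 208 and 1753 RPKM in wild type. The cryptochrome gene *cry* had 56.2 and 30.7 RPKM, a ratio of 1.83, against 0.559 and 73 RPKM in wild type, a ratio of 0.00765. *al-2*, phytoene synthase, had 2609 and 1769 RPKM in the mutant, against 67.02 and 3479 RPKM in wild type. *wc-1*, part of the photoreceptor complex, had a ratio of 1.18 on 141 and 102 reads, against 0.15 in wild type, and the clock gene *frq* rose 2.46-fold. *bli-4* was the 1 gene of the list that fell in both, to 0.476 of the vegetative level in the mutant (interval 0.438 to 0.516) and 0.00832 in wild type. The Δ*mak-1* mutant had 5107 and 232 RPKM of *al-1* and 1708 and 1056 RPKM of *vvd*. Whether the light reaching the cultures differed was not tested.

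Conidial genes moved in both directions. Of 10 members, 3 rose and 3 fell in the mutant (6 fell under the other scalings), beside 41.4% and 9.41% of all members, against 1 and 4 of 7 in wild type and 4 and 3 of 9 in the Δ*mak-1* mutant. *con-10* had 7703 RPKM at the protoperithecial and 13.6 RPKM at the vegetative stage (565-fold, interval 373 to 902), against 402 and 106 RPKM in wild type. *con-6* had 1177 and 15.3 RPKM in the mutant (76.9-fold) and 43.1 and 64.5 RPKM in wild type. The Δ*mak-1* mutant had 12747 and 3.70 RPKM of *con-10* (3443-fold) and 471 and 4.05 RPKM of *con-6* (116-fold). Both encode small proteins of conidia, and *con-13* rose 4.82-fold at low level. *con-8* was at 1676 and 1701 RPKM in the mutant, and at 1900.2 and 104 RPKM in the Δ*mak-1* mutant. The hydrophobin gene *eas*, whose protein coats conidia and aerial hyphae, fell to 6465 RPKM, against 47036 RPKM at the vegetative stage of the mutant (ratio 0.137). In wild type *eas* had 61.9 and 703 RPKM, so the mutant stood above wild type at both stages with ratios of 0.137 and 0.0882, and the Δ*mak-1* mutant had a ratio of 0.266. The conidiation regulator gene *fl* had 39.9 and 64.7 RPKM, and *acon-3* and *csp-2* fell to 0.49 and 0.497 of the vegetative level.

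Markers were summed for each library. All 5 markers of conidia and aerial hyphae were above 10 RPKM at the protoperithecial stage and 4 of 5 at the vegetative stage of the mutant, with summed levels of 17041 and 48770 RPKM, of which *eas* alone made most at the vegetative stage. In wild type the sums were 902 and 2307 RPKM. *eas*, with 6465 and 47036 RPKM in the mutant, is also a gene that the study picked from these libraries for its difference between the mutants and wild type. Its part in these sums is therefore not independent of that choice. Of 4 protoperithecial markers, only *per-1* passed 10 RPKM at the protoperithecial stage of the mutant, with sums of 19.95 and 8.24 RPKM at the 2 stages, against 3033 and 50.7 RPKM in wild type. These 4 belong to genes that the study picked from these libraries for their difference between the mutants and wild type, so their low sum in the mutant is set by that choice and says nothing independent about the cultures. Protoperithecial stage is used here as the name of the culture condition. In whole cultures, fewer cells of a type and less RNA per cell cannot be told apart, and the part of conidial cells in the ratios was not tested.

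**Figure D4:**
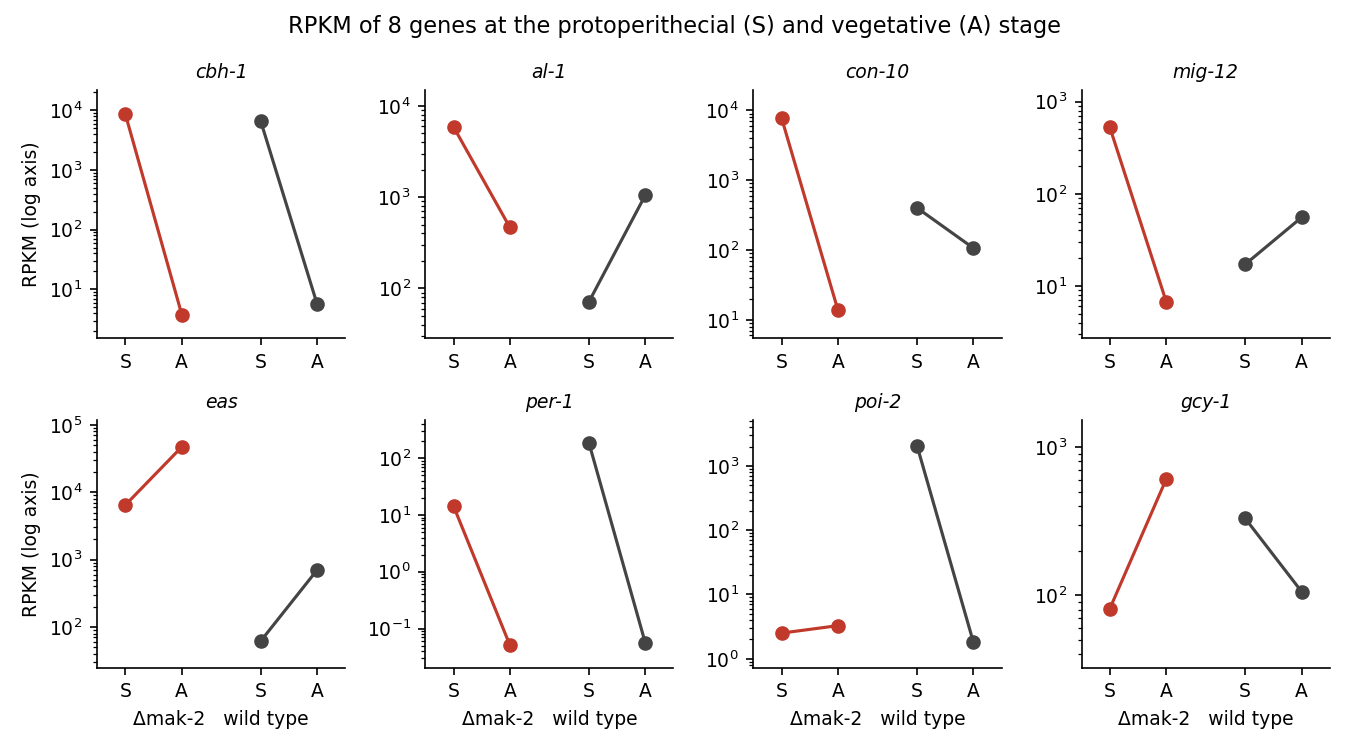
RPKM on log axes of 8 genes at the protoperithecial (S) and vegetative (A) stage in the Δ*mak-2* mutant (red) and wild type (grey), 1 pooled library a point. *cbh-1* changes alike in both strains, *al-1* and *mig-12* slope in opposite directions, *eas* is higher in the mutant at both stages, *per-1* is at 14.3 RPKM in the mutant against 187 RPKM in wild type, and *poi-2* stays at 2.51 and 3.28 RPKM in the mutant.

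Of 7 melanin genes 5 rose in the mutant. The study picked these genes too from these libraries for their difference between the mutants and wild type, so a weaker course in the mutant is set by that choice. Dihydroxynaphthalene melanin colours sexual structures. All 7 genes rose in wild type. The 5 that rose in the mutant were its members of the list (4 rose under the other scalings). All 5 passed 10 RPKM only at the protoperithecial stage, so the RPKM rule itself favours a rise among them. Their median ratio was 17.9, against 246 over all 7 genes in wild type, which is not the same set. The polyketide synthase gene *per-1* had 14.3 RPKM and 1 vegetative read (ratio 282, interval 50.3 to 11180.1), against 187 and 0.056 RPKM in wild type. The naphthol reductase gene *tnr-1* had 55.1 and 1.89 RPKM in the mutant and 696 and 2.08 RPKM in wild type. *tnr-2* had 17.1 RPKM and no vegetative read, at least 17.9-fold higher with the 0 set to 3 reads (exact interval from 14.1), against 643 RPKM and none in wild type. The scytalone dehydratase gene *scy-1* rose 11.2-fold, near the 13.6-fold of wild type, to 97.2 RPKM against 489 RPKM. *mld-1* and *pkh-2* were not members. *mld-1* had 2.14 and 0 RPKM in the mutant, against 117 and 0.504 RPKM in wild type. *pkh-2* had 2.06 and 2.97 RPKM in the mutant (ratio 0.695, interval 0.255 to 1.85), against 146 and 0.594 RPKM in wild type. The summed level of the 7 genes was 203 RPKM at the protoperithecial and 20.1 RPKM at the vegetative stage in the mutant, and 2336 and 46.6 RPKM in wild type.

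Of 29 sexual development genes taken up by the study, 25 rose in wild type. The study picked them from these libraries for their difference between the mutants and wild type at the protoperithecial stage, so neither that count nor the weaker course in the mutant is independent evidence, and the values are a description. In the mutant 22 were members, 13 rose and 2 fell (8 to 10 rose and 3 fell under the other scalings). Over all members 41.4% rose and 9.41% fell. The median ratio was 2.95 over these 22, against 9.85 over all 29 in wild type. Of the 25 wild-type increases, 12 rose in the mutant, 5 lay between, 1 fell and 7 were at or below 10 RPKM in both mutant libraries. *poi-2*, needed for perithecium development, had 2.51 and 3.28 RPKM in the mutant on 9 and 10 reads, against 2072 and 1.81 RPKM in wild type. *app*, for an abundant perithecial protein, had 0.964 and 4.91 RPKM, against 656 and 48.3 RPKM. For *poi-2* and *app* no stage increase was detectable at this depth, with intervals of 0.275 to 2.09 and 0.0359 to 0.714.

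Of the other sexual genes, some kept a stage change at a lower level and some did not. The transcription factor gene *fsd-1* had 29.3 and 11.4 RPKM in the mutant and 178 and 60.4 RPKM in wild type, ratios of 2.57 and 2.95. *pfd-1* rose 5.84-fold to 36.5 RPKM, against 38.7-fold and 303 RPKM in wild type. *tcu-1*, a copper transporter gene, rose 124-fold, to 2129 RPKM in the mutant against 7239.6 RPKM in wild type. *ahd-4* rose 95.2-fold and *rp-2* 19.3-fold. *tcf-27*, *cea-6* and *gld-1* had ratios of 1.08, 0.89 and 1.013 in the mutant, against 3.56, 4.29 and 8.87 in wild type. *fpo-1* rose 3.37-fold in the mutant and fell to 0.338 of the vegetative level in wild type. None of the 4 pheromone, receptor and mating type genes found was a member. The pheromone receptor gene *pre-2* came nearest, with 9.24 RPKM at the protoperithecial stage and 1 vegetative read (ratio 45.1, interval 7.74 to 1813).

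The kinase pathways themselves changed in part. Of 4 PR pathway members 2 rose and 1 fell, and of 4 CWI members 2 rose (1 under the other scalings). Over all members 41.4% rose and 9.41% fell. In the PR pathway, *mek-2*, the kinase that activates MAK-2, rose 3.89-fold (54.3 and 13.96 RPKM) and the transcription factor gene *pp-1* 5.11-fold (51.6 and 10.1 RPKM), against 4.23 and 3.49 in wild type. The upstream kinase gene *nrc-1* had a ratio of 1.31, against 2.90 in wild type. *adv-1*, a transcription factor gene for fusion and female development, fell: it had 84.1 and 237 RPKM in the mutant and 80.4 and 53.8 RPKM in wild type. The 2 strains thus had like levels of *adv-1* at the protoperithecial stage and differed at the vegetative stage. Of the CWI pathway, *mak-1* rose 5.21-fold and *mek-1* 2.01-fold, the second with an interval of 1.63 to 2.49 that spans the threshold. Of 5 members of the osmosensing pathway 4 rose (2 rose and 1 fell under the other scalings), beside 41.4% of all members. Among the 4 were the histidine kinase gene *os-1* (3.78-fold) and the MAP kinase gene *os-2* (2.33-fold). *os-2* did not pass 2-fold under the other scalings.

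Of 9 cell fusion members 2 rose and 1 fell, beside 41.4% and 9.41% of all members. *so* rose 2.81-fold and *ham-7* 2.13-fold, neither of which passed 2-fold under the other scalings. *ham-6* fell, with 15 and 88.2 RPKM in the mutant and 19.5 and 20.3 RPKM in wild type. Of 10 cell wall members, 3 rose and 3 fell (2 to 3 rose and 3 to 5 fell under the other scalings), beside the same 41.4% and 9.41%. The glucanosyltransferase genes *gel-1*, *gel-3* and *gel-4* fell to 0.114, 0.19 and 0.102 of the vegetative level, and all 3 fell in wild type. *mig-12* had 527 and 6.78 RPKM in the mutant (77.8-fold) against 17.2 and 55.4 RPKM in wild type, where it fell. *crf5-1* had 274 and 55.6 RPKM against 8.003 and 134 RPKM in wild type.

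Of the lists not described so far, clock-controlled genes rose in 3 and fell in 3 of 9 members (5 fell under the other scalings), aminoacyl-tRNA synthesis rose in 9 and fell in 2 of 31 (1 to 3 rose and 7 fell under them), and protein processing in the endoplasmic reticulum rose in 8 and fell in 2 of 32 (1 rose and 5 to 6 fell under them). Oxidative phosphorylation rose in 2 of 29 members (none rose and 1 fell under them), nitrogen metabolism in 2 of 6 (1 rose and 2 fell under them), DNA replication in 2 of 3 (1 under them), glycolysis in 1 of 4 with 1 fall (1 rose and 2 fell under them), and the citrate cycle in none of 2. Their median ratios were 1.49, 1.48, 3.15, 1.04 and 1.65, beside 1.68 over all members. For all lists of this paragraph, the shares over all members were 41.4% rising and 9.41% falling.

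The strains moved opposite ways in 56 genes. Of these, 39 fell in wild type and rose in the mutant, with median levels of 144.5 RPKM at the protoperithecial and 38.8 RPKM at the vegetative stage in the mutant, against 24.8 and 118.5 RPKM in wild type. Their median stage ratio in the Δ*mak-1* mutant was 2.90. The other 17 rose in wild type and fell in the mutant, with medians of 14.7 and 104.7 RPKM in the mutant, against 97.3 and 24.0 RPKM in wild type, and a median ratio of 0.869 in the Δ*mak-1* mutant. The 39 are 6.52% of the wild-type decreases that are members, beside 41.4% of all members that rose. The 17 are 0.656% of the wild-type increases that are members, beside 9.41% of all members that fell. Both shares lie below those over all members.

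Of the genes with the highest stage ratio relative to wild type, 7 are given above: *mig-12*, *cry*, *al-1*, *al-2*, *con-10*, *con-6* and *crf5-1*. The others were NCU07748 (3132 and 6.69 RPKM in the mutant, 48.3 and 10.6 in wild type), *gh61-9* (2479 and 9.86, against 836 and 323) and NCU09267 (26.9 and 4.99, against 11.5 and 128). For *gh61-9* the strains differed mainly at the vegetative stage. In all 10 the Δ*mak-2* level at the protoperithecial stage was above that of wild type, which the choice by relative stage ratio favours.

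The genes with the lowest stage ratio relative to wild type were NCU06328, *cut-1*, *tnr-2*, NCU08129, NCU00859, NCU05789, NCU05134, *gcy-1*, NCU11212 and NCU08228. *gcy-1* had 81.3 RPKM at the protoperithecial and 606 RPKM at the vegetative stage in the mutant, against 330.0 and 106 RPKM in wild type. Its neighbour in gene order, *cut-1*, had 50.1 and 408 RPKM, against 135 and 25.5 RPKM. NCU08129 had 63.9 and 857 RPKM in the mutant and 6728 and 2665 RPKM in wild type. NCU05789 stood at 12.2 and 56.3 RPKM, against 424 and 74.7 RPKM, and NCU11212 at 106 and 145 RPKM, against 1294 and 81.2 RPKM. In these 10 the mutant was below wild type at the protoperithecial stage, which the choice by relative stage ratio likewise favours.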

How the data were processed

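RNA was sequenced single-end on an Illumina HiSeq2000, 1 library for each of 6 conditions. The authors deposited RPKM per gene, and CASAVA 1.8 is named in the submitters' processing notes. For the aligner and the genome build: not given in the sources used here. Columns holding the authors' own ratios between libraries were not used. RPKM values were turned back into whole reads for 8913 of 8913 entries above 0 in at least 2 libraries (relative tolerance 1e-09, absolute 1e-06). Stage ratios are protoperithecial over vegetative RPKM. A change needed a ratio above 2 or below 0.5 and more than 10 RPKM in 1 of the 2 libraries, and a 0 was set to 3 reads of its library. Exact binomial intervals at 95% cover counting error only. Scalings by the median of ratios, by the upper quartile and to *tub-2*, other folds, another RPKM minimum, 1 RPKM added and calls by the whole interval were tried. Genes named are those of the lists, the 10 largest increases and decreases that had 50 or more reads at the stage with more, and the 10 with the highest and lowest stage ratio relative to wild type. Pathway lists came from the KEGG codes in the table. Members and lists were chosen with earlier results of these data known. Gene names and gene order came from the RefSeq NC12 table, which matched 8976 entries by locus tag and 185 by old locus tag, with 711 unmatched. Scripts ran in Python 3.11.15 (scipy 1.17.1, numpy 2.4.6, pandas 2.3.3, and matplotlib 3.10.9 for plots) and were tested on simulated data.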

Additional observations from a re-analysis of the deposited data

Results flagged for a closer look

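Between stages, 39 genes fell in wild type and rose in the Δ*mak-2* mutant. With the opposite course, 17 genes rose in wild type and fell in the mutant. These were singled out because the 2 strains moved in opposite directions under the same comparison. With 1 pooled library a condition, the difference was not tested. The 39 are 6.52% of the wild-type decreases that are members, beside 41.4% of all members that rose. The 17 are 0.656% of the wild-type increases that are members, beside 9.41% of all members that fell. In the Δ*mak-1* mutant the 39 genes had a median stage ratio of 2.90 and the 17 genes one of 0.869. In RefSeq gene order, 37 of the 39 genes could be placed and formed 2 neighbouring pairs, and 14 of the 17 could be placed and formed 1, *gcy-1* with *cut-1*. The share of neighbouring pairs over all genes was not worked out.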

How the results depend on the processing

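The main counts were 2524 increases and 574 decreases in the Δ*mak-2* mutant, 1892 of 2894 wild-type increases and 381 of 643 wild-type decreases kept, and 56 genes with opposite calls. Scaling by the median of ratios gave 1229 increases and 1251 decreases, with 772 of 1436 and 858 of 1356 kept. The upper quartile gave 1354 and 1141, with 822 of 1427 and 812 of 1357 kept, and scaling to *tub-2* gave 1204 and 1346, with 860 of 1813 and 769 of 1045 kept. These scalings lowered the log2 ratio of every gene by 0.75, 0.66 and 0.80, which by construction moves genes from increases to decreases. A 1.5-fold threshold gave 120 opposite calls, and a 3-fold threshold gave 1538 increases, 367 decreases, 1041 and 232 kept, and 18 opposite calls. A minimum of 1 RPKM gave 869 decreases and 144 opposite calls. Calls by the whole counting interval kept 1147 wild-type increases and left 28 opposite calls. Of the list counts under all settings, 378 were within 1.5 times the main count and 144 were not. No named gene's called ratio could turn direction under the 3 scalings or with 1 RPKM added. The log2 shift of at most 0.80 is smaller than a 2-fold call, and 1 RPKM added to both sides cannot carry a ratio across 1. In the order given above, the scalings left 39, 47 and 37 named ratios inside their counting interval. They put 208, 200 and 210 outside it, and 1 RPKM added put 5 outside. The balance of increases and decreases did turn, under the median of ratios and *tub-2*, as did ribosomal protein genes (3 up and 0 down, against 1 up and 6 to 11 down), aminoacyl-tRNA synthesis (9 and 2, against 1 to 3 and 7) and endoplasmic reticulum processing (8 and 2, against 1 and 5 to 6). No paired analysis was possible because each condition is 1 pooled library, and no replicate could be left out. Promoter motifs were not run. Ratios on fewer than 10 reads have wide intervals.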
